A study of Homo sapiens with 22 samples.

Results

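The genes described here are 38 ribosome biogenesis genes, chosen by name from the gene count table of H2110 tumours as RNA polymerase I subunits and factors, proteins of small nucleolar ribonucleoprotein particles (snoRNPs) and nucleolar processing factors. They are 38 of the 58735 genes in the table, and all 38 were among the 17652 genes with enough counts to be tested. The rule that names them uses no measured value, but the members were proposed with earlier results of these data known. H2110 is a human lung adenocarcinoma cell line, and its genotype is labelled WT for every tumour. The cells were grown as xenograft tumours to about 300 mm3 and the tumours were dosed orally for 3 days. There were 6 Vehicle tumours (replicates 1, 2, 3, 5, 6 and 7) and 4 tumours on each drug. RMC-7977, an inhibitor of active RAS proteins, was given at 10 mg/kg, and RMC-4550, an inhibitor of the phosphatase SHP2, at 30 mg/kg. Trametinib at 0.3 mg/kg and Cobimetinib at 3 mg/kg are both inhibitors of the kinase MEK. The doses differ, so comparisons between drugs hold at these doses only. By its title the study concerned RIT1, a RAS-related GTPase, as a target in lung adenocarcinoma. The labels name neither the host nor its age, and do not say whether tumours came from separate animals, so a p-value here reflects only how far these samples spread, which could be technical.

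Ribosomes are assembled in the nucleolus, where RNA polymerase I transcribes the ribosomal RNA precursor. Box C/D and box H/ACA snoRNPs then guide its 2′-O-methylation and pseudouridylation, and separate sets of processing factors cut and fold the parts that become the small and the large ribosomal subunit. The pathway is a large consumer of energy in growing cells, and the transcription factor MYC, which is itself induced by RAS and ERK signalling, is known to activate many of its genes through the E-box CACGTG.

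The promoters of the members are shown for this E-box, since MYC was measured in the same tumours. Promoter windows of 300 bases, from 250 before to 50 after the start of transcription, were given by RefSeq (GRCh38.p14) for 31 of the 38 members. An exact CACGTG, which reads the same on both strands, was present in a window of 15 of these 31 (48.4%), against 12.3% of the 11060 tested genes with a window and 8.77% of all 27305 genes with one. Among 112 other ribosome biogenesis genes with a window it was present in 31 (27.7%). The GC box GGGCGG, searched on both strands, was present in 24 of the 31 members (77.4%) and in 74.1% of the tested genes, so its share was near the background. Of the 16 E-box matches in member windows, 14 began within 40 bases of the start of transcription, between base −31 and base 36. By role the E-box was present in 0 of 5 genes of RNA polymerase I, 3 of 6 snoRNP genes, 7 of 11 small subunit genes, 3 of 5 large subunit genes and 2 of 4 genes of abundant nucleolar proteins. The windows of BYSL, NOP10 and NOP56 follow whole, 5′ to 3′ on the strand of the gene with CACGTG in capitals. BYSL lies at chr6:41921249-41921548 (plus strand), NOP10 at chr15:34343087-34343386 (minus strand) and NOP56 at chr20:2652382-2652681 (plus strand). BYSL has 1 match after its start, NOP10 has 2 matches before it, and NOP56, the member with the smallest p-value in the drug comparisons below, has none.
BYSL: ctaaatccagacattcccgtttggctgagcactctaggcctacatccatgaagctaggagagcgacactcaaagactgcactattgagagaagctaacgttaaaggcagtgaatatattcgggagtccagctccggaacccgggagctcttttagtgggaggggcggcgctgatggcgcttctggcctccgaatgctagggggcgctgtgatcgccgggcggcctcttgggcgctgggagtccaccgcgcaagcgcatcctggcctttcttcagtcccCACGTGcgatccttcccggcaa
NOP10: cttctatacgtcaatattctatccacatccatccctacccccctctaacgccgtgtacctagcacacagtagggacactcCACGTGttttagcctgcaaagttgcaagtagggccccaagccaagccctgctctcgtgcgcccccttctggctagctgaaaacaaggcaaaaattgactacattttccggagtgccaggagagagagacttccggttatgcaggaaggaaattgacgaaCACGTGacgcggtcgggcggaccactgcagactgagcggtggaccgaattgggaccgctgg
NOP56: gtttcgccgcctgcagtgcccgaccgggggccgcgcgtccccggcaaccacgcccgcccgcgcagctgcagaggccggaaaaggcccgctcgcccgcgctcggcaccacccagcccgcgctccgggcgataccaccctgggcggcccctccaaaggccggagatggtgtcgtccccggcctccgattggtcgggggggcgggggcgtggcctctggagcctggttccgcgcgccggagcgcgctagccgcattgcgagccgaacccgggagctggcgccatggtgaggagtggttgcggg
The stretch of up to 20 bases on each side of the match is shown for 6 more members, to compare what surrounds it. These are UTP20 at chr12:101280075-101280120 (plus strand), RRP9 at chr3:51941884-51941929 (minus strand), UTP4 at chr16:69132613-69132658 (plus strand), PES1 at chr22:30591872-30591917 (minus strand), FBL at chr19:39846348-39846393 (minus strand) and DDX21 at chr10:68956596-68956641 (plus strand).
UTP20: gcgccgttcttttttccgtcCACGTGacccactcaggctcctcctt
RRP9: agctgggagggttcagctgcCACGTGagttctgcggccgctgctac
UTP4: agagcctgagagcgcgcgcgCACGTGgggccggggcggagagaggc
PES1: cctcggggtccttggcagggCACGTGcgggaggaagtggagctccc
FBL: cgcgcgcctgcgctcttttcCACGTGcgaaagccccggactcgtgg
DDX21: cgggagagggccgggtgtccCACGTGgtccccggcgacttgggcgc
A match describes these letters only. Under RMC-7977 the median log2 fold change against Vehicle was −0.31 over the 15 members with the E-box and −0.28 over the 16 with a window and no E-box, so the 2 sets lay close together.

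Total counts were 7761987 to 17265754 per tumour, and the 38 members held 0.251% to 0.470% of them. Some tumours stood apart before any comparison. In Trametinib replicate 4, cytosolic ribosomal protein genes took 26.1% of the counts against at most 9.90% elsewhere, and 1.99% of its detected genes had 1 or 2 counts. RMC-7977 replicate 3 had 5.02% of detected genes at 1 or 2 counts, against at least 13.4% in the other 20 tumours. Vehicle replicate 1 and RMC-4550 replicate 1 were low in GC-rich genes: ranked over genes, the distance of a tumour from the mean of all tumours correlated with GC content at −0.52 and −0.57 in these tumours, and at 0.29 to 0.41 in the other 5 on Vehicle. It was also −0.47 and −0.40 in Trametinib replicates 1 and 2, and −0.41 in RMC-7977 replicate 3. The 4 tumours said to stand apart are Trametinib replicate 4, RMC-7977 replicate 3, Vehicle replicate 1 and RMC-4550 replicate 1. The counts of members, and the genes for which it is stated, are also given without these 4 tumours or without one of them. Leaving out the 4 keeps Trametinib replicates 1 and 2, which then stand against Vehicle tumours at 0.29 to 0.41. Epithelial genes were abundant in all tumours (median KRT8 1262 CPM and EPCAM 452 CPM, where CPM is the count scaled to a common library size after TMM), while the lung markers NKX2-1, NAPSA and SFTPB had medians of 2.88, 1.14 and 1.06 CPM.

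In Vehicle tumours the levels per kilobase of gene length ran from 3.10 ± 0.399 CPM per kb (SD, n = 6) for UTP20 to 171 ± 70.04 for NPM1, leaving out NOP2. That length counts all annotated exon bases of a gene (13519 for POLR1A), not the transcript expressed, so the order of genes is approximate. NPM1, a histone and ribosome chaperone of the granular nucleolus, was followed by NOP10 at 98.8 ± 32.5, NCL (nucleolin) at 68.6 ± 10.9 and FBL (fibrillarin) at 54.98 ± 13.5 CPM per kb. The range of each of these neighbours over the 6 tumours overlapped that of the next, and the order within each tumour is not given here. The catalytic polymerase subunits were near the bottom of the order, with POLR1A at 3.47 ± 0.981 and POLR1B at 3.66 ± 0.954 CPM per kb. NOP2 stood at 0.444 ± 0.104 CPM per kb, but 54.4% of its exon bases are shared on the same strand with AC006064.6 and it held only 550 counts over all 22 tumours, so its level and its fold changes are uncertain. LTV1 shares 34.8% of its exon bases with 2 genes on the same strand, so some of its reads may be missing from its 3911 counts. Over the 38 members the SD between the 6 Vehicle tumours was 24.3% of the mean at the median, from 3.46% for HEATR1 to 47.5% for DDX21.

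No single member passed the test in any drug against Vehicle, but under RMC-7977 nearly all of them lay below Vehicle. By the quasi-likelihood test of edgeR, adjusted over all tested genes, 0 of 38 members had an adjusted p under 0.05 under RMC-7977, where 0.748% of all genes did. At an unadjusted p under 0.05 the count was 6 members, against 10.3% of all genes, and all 6 were lower than Vehicle, against 5.47% of all genes. DESeq2 called 2 members lower, NOP56 and BYSL, where it called 3.04% of all genes. The log2 fold change was below 0 in 36 of 38 members, against 50.7% of all genes, and its median was −0.31 against −0.01 over all genes. The members were read in the same tumours, so they are not 38 independent observations. In 8 of 38 members (NOP56, BYSL, NCL, NOLC1, RRP9, NOP14, NOP16 and DKC1) all 4 RMC-7977 tumours lay below all 6 Vehicle tumours, against 1.9% of all genes. With the 4 tumours that stood apart left out, 33 of 38 log2 fold changes were below 0, the median was −0.29, and edgeR called 2 members (NOP56 and BYSL) where 6.38% of all genes were called. Without Vehicle replicate 1 alone, 29 of 38 were below 0 and the median was −0.25.

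The other drugs showed smaller shifts of the members. RMC-4550 gave 0 called members of 38 in edgeR (0.0283% of all genes) and 0 in DESeq2 (0.198%), with 0 at an unadjusted p under 0.05 (4.24% of all genes). It had 26 log2 fold changes below 0 (50.7% of all genes) and a median of −0.13. Cobimetinib gave 0 called members in edgeR (0% of all genes) and 0 in DESeq2 (0.00567%), with 0 at an unadjusted p under 0.05 (3.3% of all genes). It had 26 below 0 (51.2% of all genes) and a median of −0.09. Trametinib gave 0 called members in edgeR (0% of all genes) and 0 in DESeq2 (2.09%). At an unadjusted p under 0.05 it had 5 members (18.8% of all genes), 3 of them higher (FBL, NOP10 and NOP16) and 2 lower (NOP56 and BOP1), where 11.7% and 7.17% of all genes were. Its median was −0.11, with 23 members below 0 (50.4% of all genes). The tumours of RMC-4550, Trametinib and Cobimetinib lay wholly below Vehicle in 0 members each, against 0.465%, 0.629% and 0.799% of all genes. Without the 4 tumours that stood apart the median was −0.02 under RMC-4550, 0.02 under Cobimetinib and 0.11 under Trametinib, so the sign of the last 2 turned. Vehicle replicate 1 alone, when left out, brought the medians to −0.01, 0.02 and −0.03 in the same order, and leaving out Trametinib replicate 4 alone brought Trametinib to 0.03. For the mean of the 4 drugs against Vehicle, edgeR called 0 members (0.125% of all genes) and DESeq2 called 0 (0.357%), with 3 at an unadjusted p under 0.05 (6.12% of all genes). These 3, NOP56, BYSL and TSR1, were all lower (3.68% of all genes). Since the drugs share the 6 Vehicle tumours, these counts are not independent of each other.

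Seen tumour by tumour, the mean log2 CPM of the 38 members minus its Vehicle mean was −0.23, −0.27, −0.28 and −0.35 in the RMC-7977 tumours. In Vehicle tumours it ran from −0.14 to 0.27, with Vehicle replicate 1 the highest, and a median of −0.04. The RMC-4550 tumours stood at −0.16, −0.13, 0.12 and −0.19, the Trametinib tumours at 0.10, −0.00, −0.10 and −0.42, and the Cobimetinib tumours at 0.19, −0.14, −0.08 and −0.16. All 4 RMC-7977 tumours lay below all 6 Vehicle tumours, while the other 3 drugs overlapped Vehicle, and the lowest of all was Trametinib replicate 4. In bulk tumours, fewer cells that express these genes and less RNA of them per cell cannot be told apart.

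**Figure D1:**
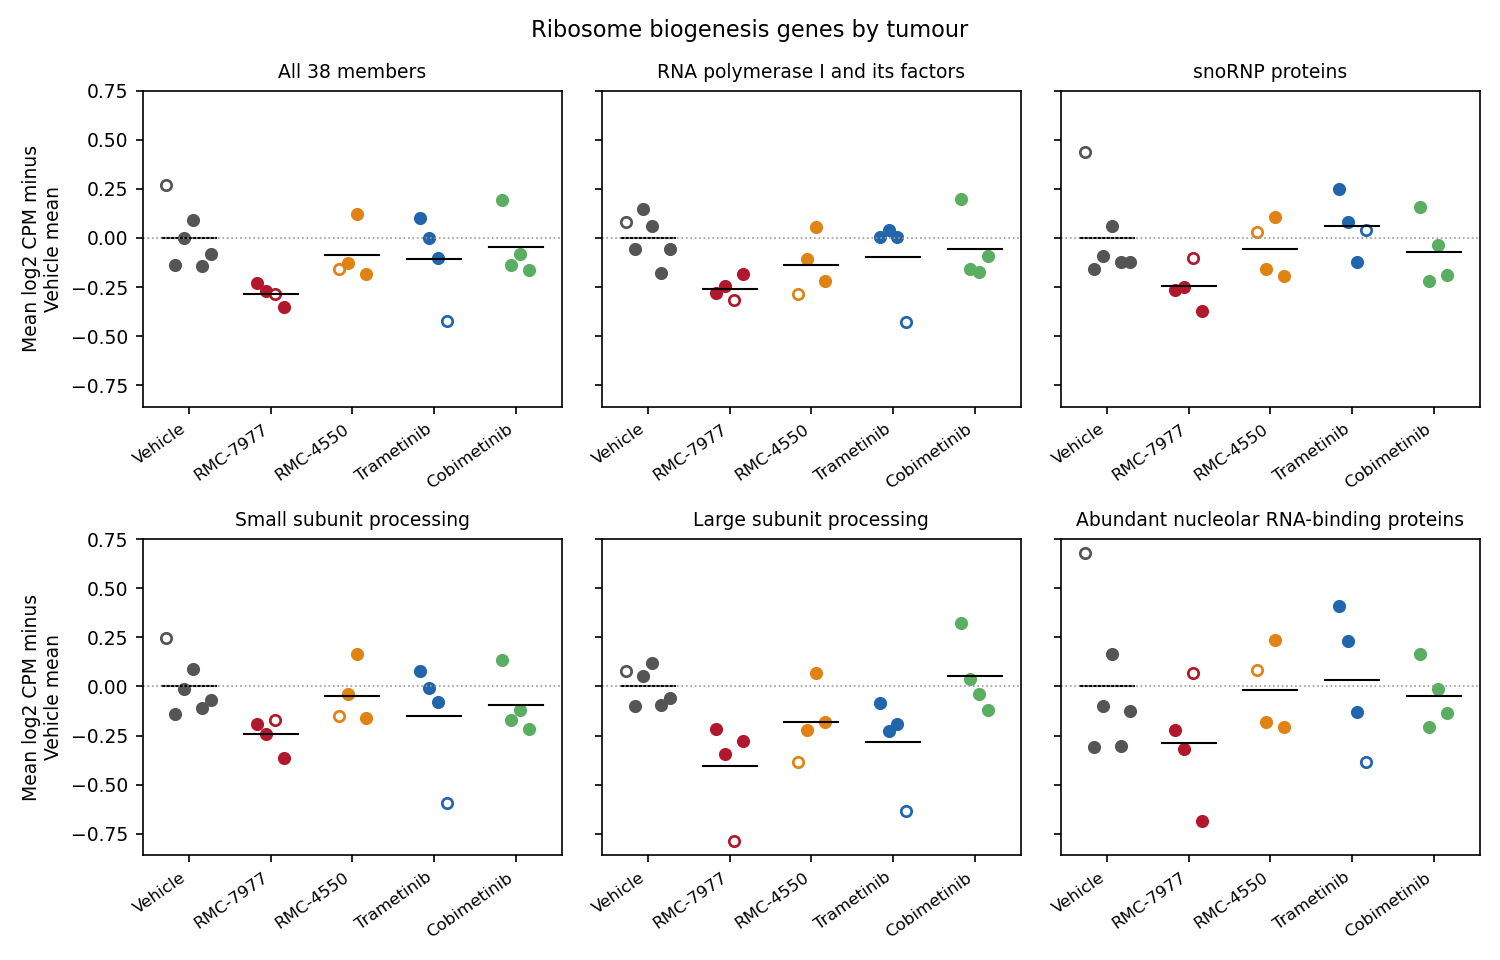
Mean log2 CPM of all 38 members and of each role group in every tumour, minus the Vehicle mean (vertical axis, log2 units), for the 5 groups; points are tumours, lines are group means, and open points are the 4 tumours that stood apart. For all members the RMC-7977 tumours sit between −0.35 and −0.23, below every Vehicle tumour.

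**Figure D2:**
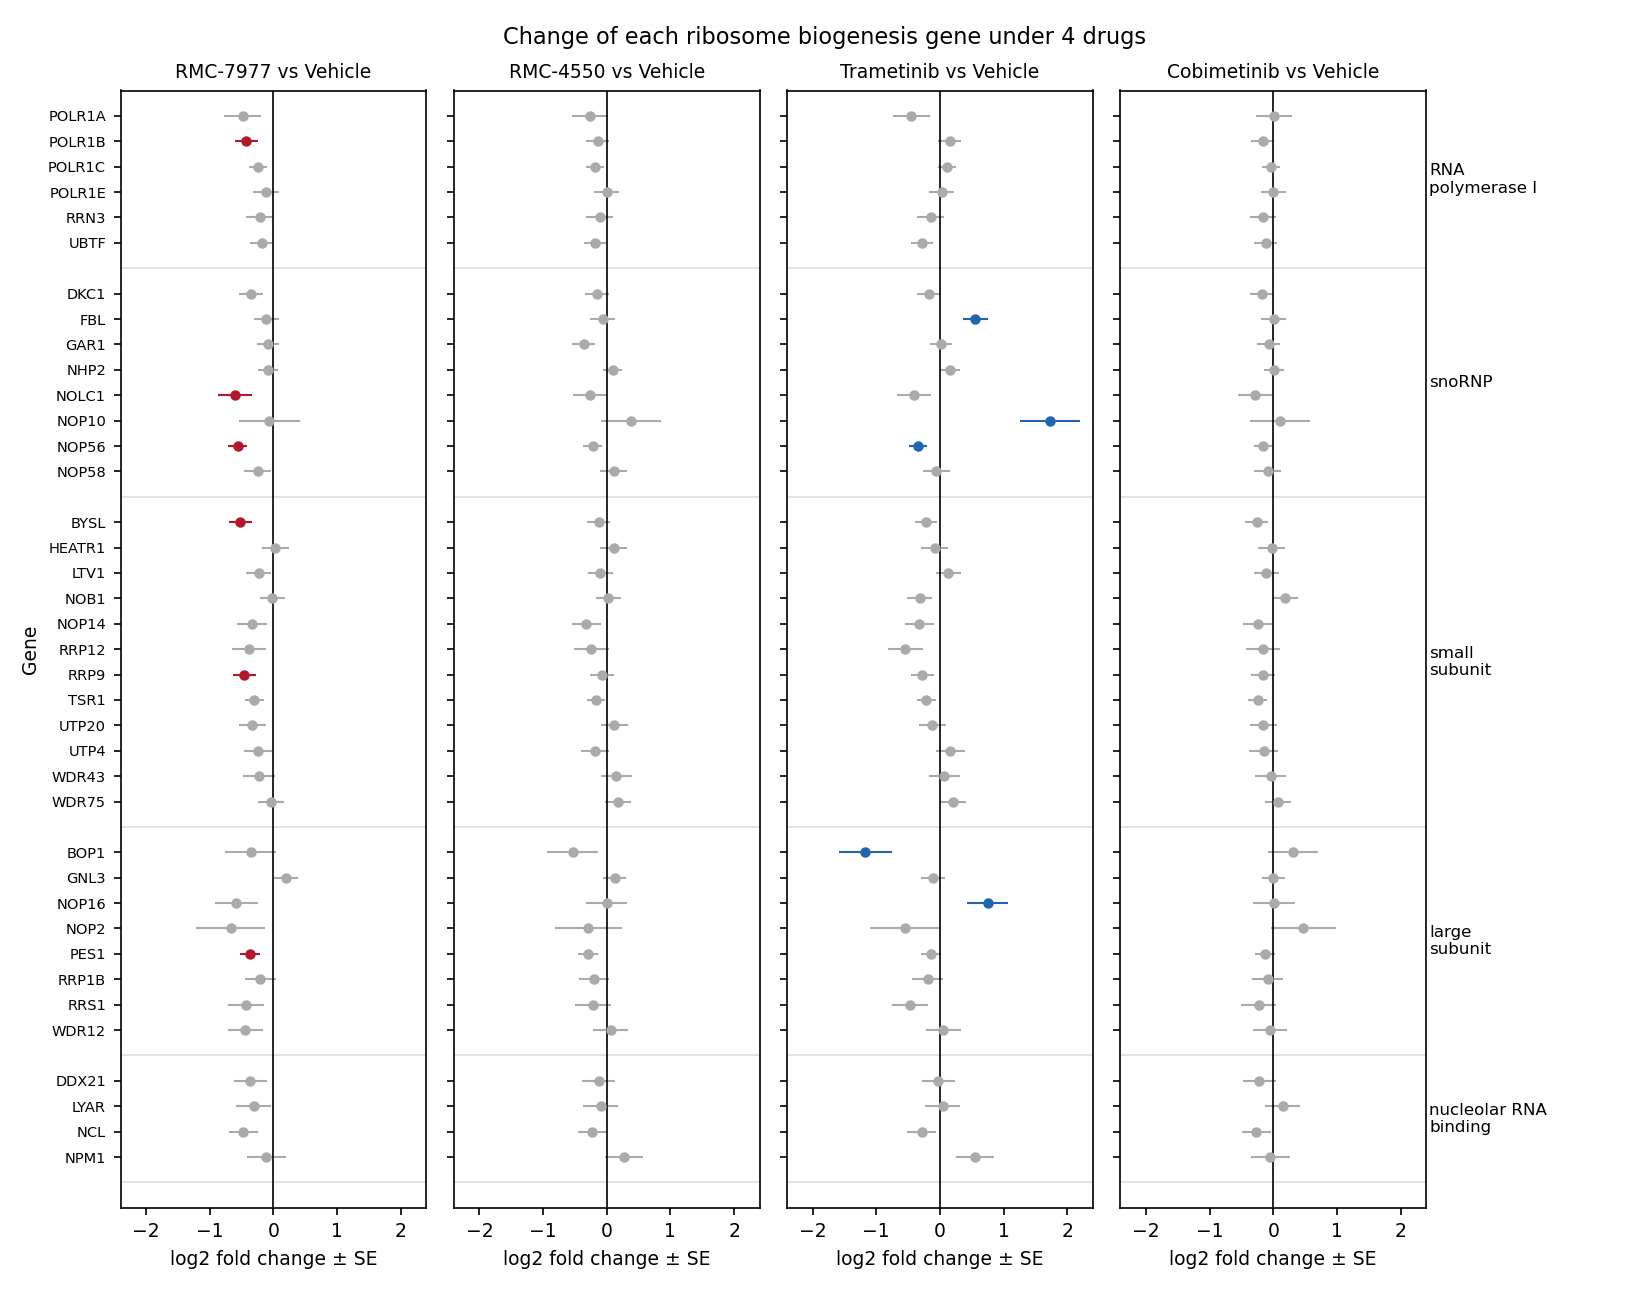
Log2 fold change of each member against Vehicle under each drug, with its standard error, by role; coloured points have an unadjusted p under 0.05 and grey points do not, and no member passed the adjusted threshold. Under RMC-7977, 36 of 38 points lie left of 0, and under Trametinib NOP10 at 1.73 and BOP1 at −1.17 lie farthest out.

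RNA polymerase I and its factors had 6 members, and all 6 lay below Vehicle under RMC-7977 (50.7% of all genes) with a median log2 fold change of −0.23. None of them was called (0.748% of all genes), and 1 had an unadjusted p under 0.05 (10.3% of all genes). POLR1B, the second-largest subunit of the enzyme, read 15.9 to 33.4 CPM (median 22.3) in Vehicle tumours and 12.8, 17.8, 20.9 and 17.4 CPM in RMC-7977 tumours. Its log2 fold change was −0.43 ± 0.18 (edgeR adjusted p = 0.387), and only RMC-7977 replicate 1 lay below all Vehicle tumours. The same gene read 27.3, 25.8, 23.1 and 27.2 CPM under Trametinib and 24.7, 18.2, 19.8 and 19.9 CPM under Cobimetinib, within the Vehicle range in all 8 tumours. The largest subunit, POLR1A, stood at 37.4, 32.1, 23.1 and 41.6 CPM under RMC-7977 against 20.9 to 57.7 CPM (median 52.1) under Vehicle, with a log2 fold change of −0.48 ± 0.29. Vehicle replicate 1 at 20.9 CPM was the lowest of the Vehicle tumours, and the other 5 all lay above the 4 RMC-7977 tumours. UBTF, which opens ribosomal DNA for the polymerase, had log2 fold changes of −0.19, −0.18, −0.28 and −0.12 under RMC-7977, RMC-4550, Trametinib and Cobimetinib. Under Trametinib it read 114, 126, 146 and 95.2 CPM against 106 to 167 CPM (median 152) under Vehicle (log2 fold change −0.28 ± 0.18, adjusted p = 0.378), and a correction for GC content brought the value to −0.13. POLR1C, a subunit shared with RNA polymerase III, was the member of this group with the smallest p under RMC-4550, at 24.6, 18.3, 23.3 and 22.7 CPM against 22.7 to 29.1 CPM (median 24.5) under Vehicle (log2 fold change −0.19 ± 0.14, adjusted p = 0.986). The initiation factor RRN3 (TIF-IA), a known target of ERK phosphorylation, had log2 fold changes of −0.22, −0.11, −0.15 and −0.16 in the same order, and POLR1E had −0.11 under RMC-7977. Without the 4 tumours that stood apart the values of RRN3 were −0.06, 0.04, 0.20 and −0.01, and that of POLR1E was 0.02, so the signs of RRN3 under RMC-4550 and Trametinib and of POLR1E turned. None of these passed the test.

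The snoRNP proteins had 8 members, all below Vehicle under RMC-7977 (50.7% of all genes) with a median log2 fold change of −0.18. NOP56, a core protein of box C/D snoRNPs, read 132 to 162 CPM (median 143) under Vehicle and 99.1, 98.3, 99.9 and 92.96 CPM in the 4 RMC-7977 tumours. These 4 values were close together and all lay below every Vehicle tumour. The log2 fold change was −0.56 ± 0.15 (edgeR adjusted p = 0.0778), and the adjusted p ran from 0.000362 to 0.928 over the 30 alternative settings, with a call in 5 of them. NOP56 was called with RLE scaling, with DESeq2, without Trametinib replicate 4, and without the 2 or 4 tumours that stood apart. The other drugs overlapped Vehicle: with RMC-4550 the tumours read 123, 122, 139 and 111 CPM, with Trametinib 117, 125, 132 and 80.3 CPM and with Cobimetinib 159.7, 118, 126 and 114 CPM. It hosts several snoRNA genes in its introns, and 8.74% of its exon bases are shared with genes on the same strand. For the mean of the 4 drugs its log2 fold change was −0.32 ± 0.11 (unadjusted p = 0.00645, adjusted p = 0.56).

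Its partners in the same particle had smaller differences under RMC-7977. NOP58 read 74.7 to 157 CPM (median 83.6) under Vehicle and 85.8, 71.6, 97.3 and 69.1 CPM under RMC-7977, with overlap and a log2 fold change of −0.25 ± 0.22. FBL, the methyltransferase of box C/D snoRNPs, read 103 to 178 CPM (median 109) under Vehicle and 107, 117, 137 and 81.3 CPM under RMC-7977, a log2 fold change of −0.11 ± 0.20. Under Trametinib it read 174, 164, 128 and 235 CPM, above 5 of the 6 Vehicle tumours in all 4 tumours and above Vehicle replicate 1 in 1 of them. Its log2 fold change was 0.55 ± 0.19 (adjusted p = 0.153), and it was called without Vehicle replicate 1 (0.70, adjusted p = 0.047), without Trametinib replicate 3 (0.72, adjusted p = 0.0367) and without the 4 tumours that stood apart (0.51, adjusted p = 0.0229). NOLC1 (Nopp140), a nucleolar chaperone of snoRNPs, read 133 to 232 CPM (median 177) under Vehicle and 115, 119.6, 111 and 119 CPM under RMC-7977, with no overlap and a log2 fold change of −0.61 ± 0.27 (adjusted p = 0.403). Under Trametinib its tumours read 167, 173, 146 and 46.7 CPM, of which replicate 4 was by far the lowest, and under Cobimetinib 168, 151, 114 and 149 CPM (log2 fold change −0.28 ± 0.26, adjusted p = 1.00).

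Box H/ACA snoRNPs carry DKC1, the pseudouridine synthase, with NOP10, NHP2 and GAR1. DKC1 read 122 to 152 CPM (median 128) under Vehicle and 109, 102, 110.2 and 94.3 CPM under RMC-7977, with no overlap and a log2 fold change of −0.35 ± 0.19 (adjusted p = 0.548). The small proteins NOP10, NHP2 and GAR1 had log2 fold changes of −0.07, −0.08 and −0.09 under RMC-7977, each with overlapping tumours. NOP10 under Trametinib had the largest log2 fold change of any member, at 1.73 ± 0.47 (adjusted p = 0.0945). Its tumours read 77.5, 57.3, 49.98 and 542 CPM against 42.3 to 90.1 CPM (median 49.6) under Vehicle, so 1 tumour, Trametinib replicate 4, carried the difference. Without that tumour the log2 fold change was 0.14. NOP10 passed the threshold when Trametinib replicate 1, 2 or 3 or Vehicle replicate 1 was left out instead, at 1.93 to 2.15 (adjusted p = 0.0142 to 0.047). GAR1 was the member of this group with the smallest p under RMC-4550, at 13.6, 15.3, 16.9 and 15.3 CPM against 13.98 to 27.5 CPM (median 18.7) under Vehicle (log2 fold change −0.36 ± 0.18, adjusted p = 0.986), and without Vehicle replicate 1 the value was −0.24.

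Small subunit processing had 12 members, of which 11 lay below Vehicle under RMC-7977 (50.7% of all genes), with a median log2 fold change of −0.27. None was called (0.748% of all genes), and BYSL and RRP9 had an unadjusted p under 0.05 (10.3% of all genes). BYSL (bystin), needed late in the maturation of the small subunit, read 17.2 to 28.7 CPM (median 21.8) under Vehicle and 15.2, 16.1, 16.9 and 13.9 CPM under RMC-7977. All 4 treated tumours lay below all Vehicle tumours, by a narrow margin between RMC-7977 replicate 3 and Vehicle replicate 2. The log2 fold change was −0.52 ± 0.18 (adjusted p = 0.221), and BYSL was called in 3 of 30 alternative settings: DESeq2, without Trametinib replicate 4, and without the 4 tumours that stood apart. For the mean of the 4 drugs it was −0.28 ± 0.13 (adjusted p = 0.777). RRP9, the U3 snoRNA-binding protein, read 15.2 to 22.9 CPM (median 17.4) under Vehicle and 13.9, 11.9, 15.05 and 12.1 CPM under RMC-7977, again with no overlap, at a log2 fold change of −0.46 ± 0.19 (adjusted p = 0.352). NOP14 read 34.002 to 44.2 CPM (median 38.2) under Vehicle and 32.1, 32.8, 25.1 and 32.02 CPM under RMC-7977, with no overlap and a log2 fold change of −0.33 ± 0.23. Under RMC-4550 its tumours read 20.4, 34.4, 40.6 and 27.7 CPM, which overlapped Vehicle (log2 fold change −0.32 ± 0.23, adjusted p = 0.986). Reads of NOP14, NOB1, TSR1 and HEATR1 may be shared with genes on the other strand, which cover 17.1%, 20.2%, 20.8% and 23.2% of their exon bases. The same holds in other roles for NHP2 (27.4%) and POLR1C (18.2%), and for NOP16 with a share between these.

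The U3 particle proteins of the early small subunit precursor spread from below to near 0 under RMC-7977. UTP20 had a log2 fold change of −0.33, UTP4 of −0.24, WDR43 of −0.23, WDR75 of −0.04 and HEATR1 of 0.03, and all 5 overlapped Vehicle. HEATR1, which also links the early precursor to RNA polymerase I, read 62.6 to 68.05 CPM (median 64.5) under Vehicle and 62.4, 66.2, 81.2 and 55.95 CPM under RMC-7977, so the drug tumours lay on both sides of Vehicle. Its log2 fold change was −0.09 with the GC correction and −0.10 without the 4 tumours that stood apart. The late cytoplasmic factors NOB1, the nuclease that makes the final cut, and LTV1 had log2 fold changes of −0.02 and −0.23, and LTV1 had −0.07 without the 4 tumours. TSR1, a GTPase-like late factor, read 55.5, 56.7, 66.6 and 67.99 CPM under RMC-7977 and 59.7, 66.9, 62.8 and 68.02 CPM under Cobimetinib against 64.5 to 88.8 CPM (median 75.4) under Vehicle. It was the member of this group with the smallest p under Cobimetinib (log2 fold change −0.24 ± 0.15, adjusted p = 1.00). RRP12 read 34.95, 36.5, 49.1 and 23.5 CPM under Trametinib against 25.96 to 64.5 CPM (median 55.9) under Vehicle, where Vehicle replicate 1 was the lowest. Its log2 fold change was −0.54 ± 0.27 (adjusted p = 0.277), −0.55 (adjusted p = 0.0285) without the 4 tumours that stood apart, and −0.30 with the replicate block.

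Large subunit processing had 8 members, 7 of them below Vehicle under RMC-7977 (50.7% of all genes), with a median log2 fold change of −0.40. NOP2, the methyltransferase with only 550 counts, had −0.67 ± 0.54 under RMC-7977, where replicate 3 was listed with 0.0 CPM (−0.36 without the 4 tumours that stood apart), and 0.47 ± 0.51 under Cobimetinib (adjusted p = 1.00), with 2.77, 3.48, 3.13 and 2.19 CPM against 1.55 to 2.86 CPM (median 1.91) under Vehicle. NOP16 read 22.4 to 50.1 CPM (median 24.1) under Vehicle and 19.1, 19.5, 21.4 and 15.1 CPM under RMC-7977, with no overlap, at a log2 fold change of −0.58 ± 0.33 (adjusted p = 0.595). Under Trametinib it read 33.1, 30.3, 24.4 and 102 CPM, with replicate 4 far above the rest (log2 fold change 0.75 ± 0.32, adjusted p = 0.224). Without that tumour the value was 0.03, and 0.28 without the 4 that stood apart.

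PES1, BOP1 and WDR12 form the PeBoW complex, which is needed to mature the 28S and 5.8S ribosomal RNAs, and none of the 3 was called in any drug. PES1 read 68.7 to 92.7 CPM (median 87.1) under Vehicle and 61.4, 75.5, 58.5 and 62.8 CPM under RMC-7977, where replicate 2 overlapped the lowest Vehicle tumour (log2 fold change −0.37 ± 0.16, adjusted p = 0.377). Under RMC-4550 it read 53.7, 80.1, 71.5 and 67.4 CPM (log2 fold change −0.29 ± 0.16, adjusted p = 0.986). WDR12 had −0.44 ± 0.27 under RMC-7977, with 23.2, 24.1, 37.6 and 23.9 CPM against 26.9 to 70.7 CPM (median 31.4) under Vehicle. BOP1 spread widely between tumours, with 149, 112, 47.5 and 164 CPM under RMC-7977 against 58.1 to 178 CPM (median 167) under Vehicle and a log2 fold change of −0.36 ± 0.40. Its low tumours were Vehicle replicate 1 at 58.1 CPM, RMC-7977 replicate 3 at 47.5 CPM and RMC-4550 replicate 1 at 34.2 CPM. Under Trametinib all 4 tumours read low, at 53.6, 74.3, 109 and 32.3 CPM, and all lay below 5 of the 6 Vehicle tumours. Against Vehicle this was −1.17 ± 0.41 on the log2 scale (adjusted p = 0.157). It was −1.13 (adjusted p = 0.0104) without the 4 tumours that stood apart, −1.50 (adjusted p = 0.0471) without Trametinib replicate 3, and −0.69 with a correction for GC content. BOP1 transcripts are 65.1% GC, the highest of the 38 members, and the correlation with GC content described above was −0.47 to 0.05 in the Trametinib tumours. Under Cobimetinib, the other MEK inhibitor, BOP1 read 242, 239, 104 and 168 CPM, and Trametinib against Cobimetinib differed by −1.48 ± 0.45 (adjusted p = 0.183). RRS1 and RRP1B had log2 fold changes of −0.43 and −0.20 under RMC-7977, and GNL3 (nucleostemin), a GTPase of proliferating cells, had 0.19 ± 0.19, with 3 of 4 RMC-7977 tumours above 5 of the 6 Vehicle tumours.

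The abundant nucleolar RNA-binding proteins had 4 members, all below Vehicle under RMC-7977 (50.7% of all genes), with a median log2 fold change of −0.34. NCL, which binds ribosomal RNA precursors and chromatin, read 390.3 to 604 CPM (median 452) under Vehicle and 346, 353, 342 and 329 CPM under RMC-7977. The 4 treated tumours lay within a narrow band below all 6 Vehicle tumours (log2 fold change −0.47 ± 0.23, adjusted p = 0.495). With RMC-4550 the tumours read 287, 458, 538 and 346 CPM, with Trametinib 469, 477, 433 and 182 CPM and with Cobimetinib 511, 375, 328 and 369.9 CPM, and each group overlapped Vehicle. The log2 fold changes were −0.22 ± 0.23, −0.28 ± 0.23 and −0.26 ± 0.23, and −0.02 under RMC-4550 without the 4 tumours that stood apart. NPM1 read 478 to 1196 CPM (median 557) under Vehicle and 616, 512, 902 and 393 CPM under RMC-7977, a log2 fold change of −0.11 ± 0.30 with overlap. Under Trametinib it read 922, 757, 592 and 1564 CPM, of which replicate 4 was the highest of all tumours, with a log2 fold change of 0.55 ± 0.30 (adjusted p = 0.319) that was 0.18 without that tumour. NPM1 has 45 pseudogenes named for it in the table, which held counts equal to 2.11% of its own, so its reads could be split. DDX21, an RNA helicase that joins RNA polymerase I transcription to processing, read 114 to 391 CPM (median 178) under Vehicle and 145, 148, 218 and 122 CPM under RMC-7977, with overlap and a log2 fold change of −0.36 ± 0.26. LYAR had −0.31 ± 0.28.

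**Figure D3:**
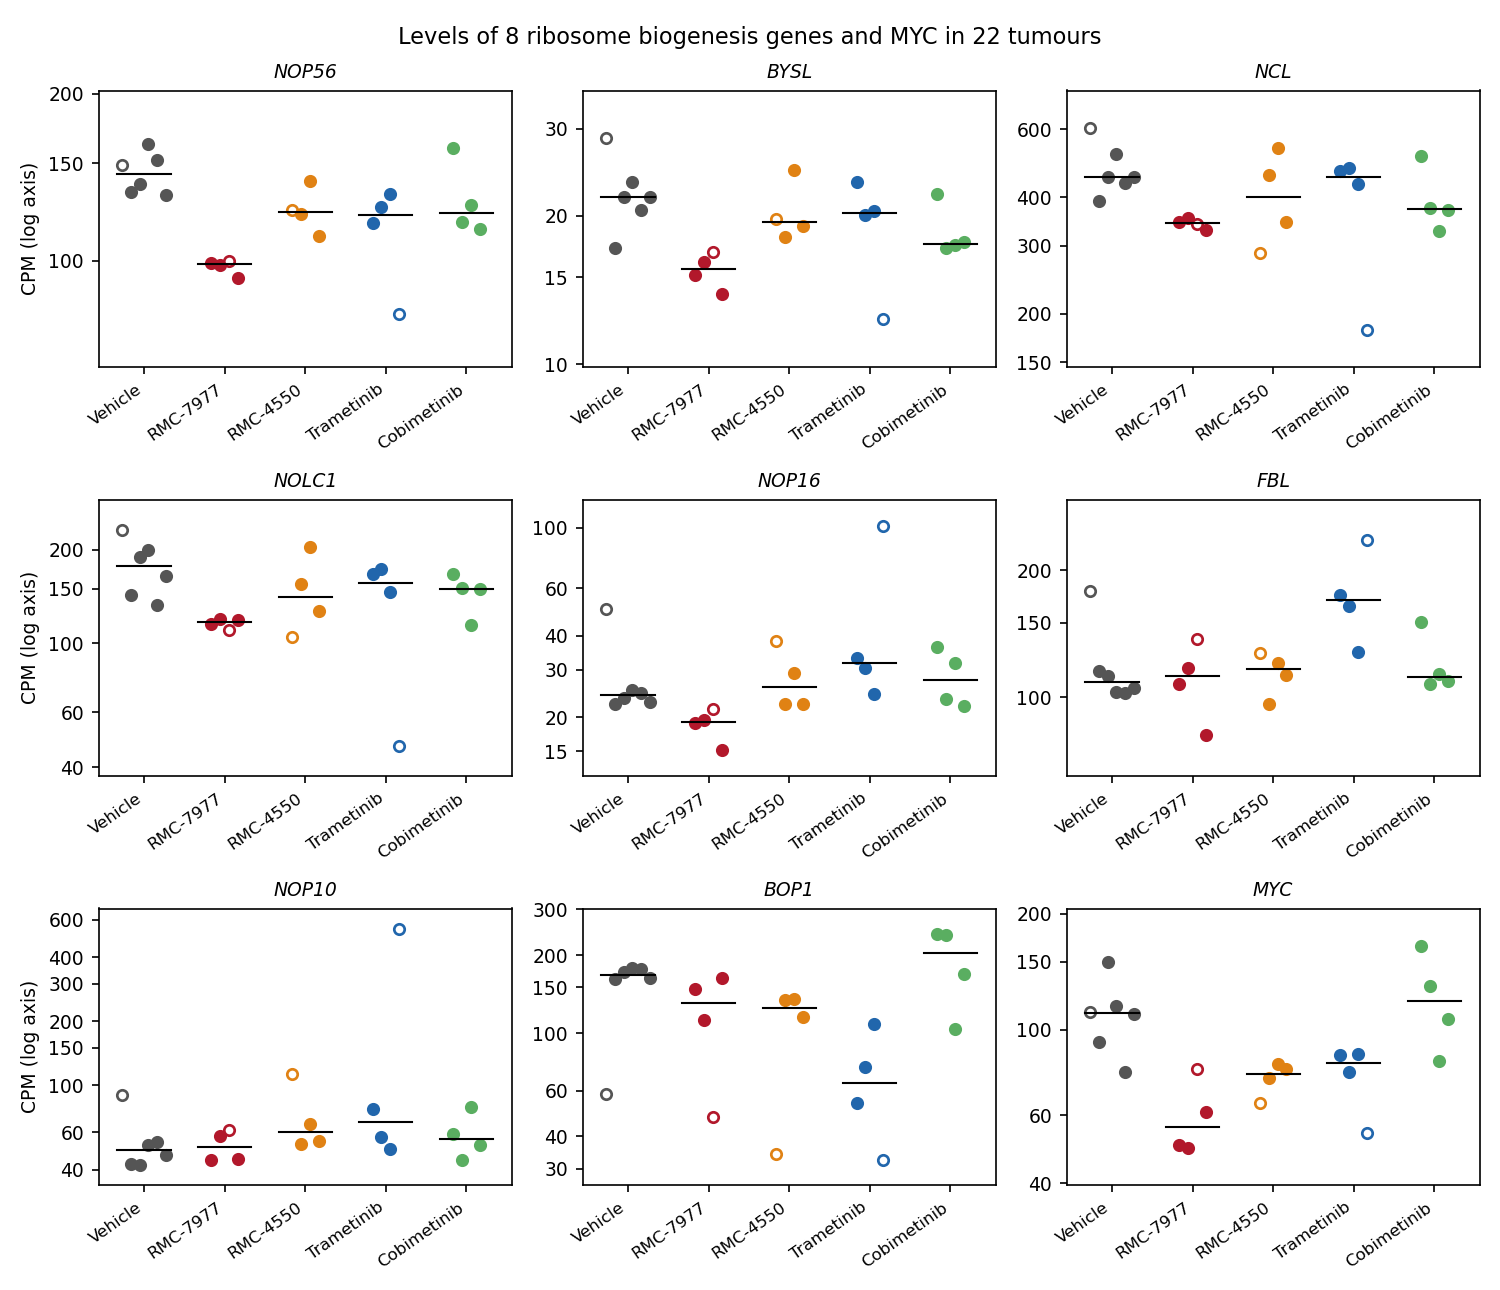
CPM of 8 members and MYC in each of the 22 tumours (vertical log axes, scaled per gene); points are tumours, lines are group medians, and open points are the 4 tumours that stood apart. NOP56, BYSL, NCL, NOLC1 and NOP16 have all 4 RMC-7977 tumours below all Vehicle tumours, and 1 Trametinib tumour sets the spread of NOP10 at 542 CPM.

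Direct tests between the drugs asked whether RMC-7977 differed from the others in these genes. edgeR called 0 members in RMC-7977 against RMC-4550 (0.0906% of all genes), against Trametinib (0.408%) and against Cobimetinib (0.278%). It also called 0 in RMC-4550 against Trametinib (0%), RMC-4550 against Cobimetinib (0.0283%) and Trametinib against Cobimetinib (0%). At an unadjusted p under 0.05 the counts in the same order were 1, 5, 1, 3, 0 and 4 members, against 7.39%, 18.2%, 7.45%, 12.3%, 6.2% and 16.7% of all genes. DESeq2 called 3 members in RMC-7977 against Trametinib (NOP16, FBL and POLR1B), where it called 4.32% of all genes, and 0 in the other 5 pairs. There it called 0.946% of all genes in RMC-7977 against RMC-4550, 1.57% in RMC-7977 against Cobimetinib, 0.946% in RMC-4550 against Trametinib, 0.674% in RMC-4550 against Cobimetinib and 0.952% in Trametinib against Cobimetinib. The log2 fold change was below 0 in 35, 31 and 36 of 38 members for RMC-7977 against RMC-4550, Trametinib and Cobimetinib, where 51.6%, 48.8% and 51% of all genes were. These 3 comparisons share the RMC-7977 tumours. The medians were −0.21, −0.19 and −0.18. All 4 RMC-7977 tumours lay below all tumours of RMC-4550 for NOP56, BYSL and NOP16 (3 members; 4.21% of all genes) and above them for GAR1 (1 member; 3.79%). For GAR1 this was nearly a tie, with the lowest RMC-7977 tumour at 16.87 CPM and the highest RMC-4550 tumour at 16.866 CPM. The RMC-7977 tumours lay below all Trametinib tumours for POLR1B and NOP16 (2 members; 2.92%), and below all Cobimetinib tumours for NOP56, BYSL, NOP16 and NOP2 (4 members; 4.73%). NOP56 differed by −0.34 ± 0.16 from RMC-4550 (adjusted p = 0.663) and by −0.41 ± 0.16 from Cobimetinib (adjusted p = 0.479). For any difference among the 5 groups edgeR called 0 members (1.46% of all genes), with 5 at an unadjusted p under 0.05 (NOP10, NOP56, NOP16, FBL and BOP1; 15.5% of all genes). DESeq2 called 1, NOP56, where it called 7.42% of all genes.

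By edgeR with all 22 tumours, MYC differed among the 5 groups at the threshold, and no single drug against Vehicle was called. RMC-7977 against Vehicle was called in 11 of 30 alternative settings (adjusted p = 0.00296 to 0.498). MYC read 77.4 to 149 CPM (median 110.5) under Vehicle and 50.3, 49.3, 79.1 and 61.1 CPM under RMC-7977. With RMC-4550 the tumours read 64.7, 74.8, 81.3 and 79.1 CPM, with Trametinib 86.03, 77.7, 86.6 and 53.9 CPM and with Cobimetinib 165, 130.04, 83.1 and 107 CPM. The RMC-7977 tumours overlapped Vehicle only through replicate 3 at 79.1 CPM, against the lowest Vehicle tumour at 77.4 CPM, and of the Cobimetinib tumours replicate 1 lay above all Vehicle tumours and the other 3 within their range. The log2 fold changes against Vehicle were −0.87 ± 0.21 (adjusted p = 0.0556), −0.54 ± 0.21 (adjusted p = 0.986), −0.52 ± 0.21 (adjusted p = 0.2) and 0.15 ± 0.21 (adjusted p = 1.00) in the same order. The edgeR test for any difference among the groups gave an adjusted p of 0.0454. This difference was called in 15 of 30 alternative settings and not in the other 15 (adjusted p = 0.00053 to 0.363), among them the GC correction (adjusted p = 0.174) and leaving out any one of 12 tumours. For a single pair, RMC-7977 against Cobimetinib gave −1.01 ± 0.23 (adjusted p = 0.0605), with all 4 tumours below all 4, and was called in 8 of 30 alternative settings (adjusted p = 0.00154 to 0.267). Of the 11 tested genes of the MYC network, 0 were called in any drug against Vehicle, and under RMC-7977 5 lay below 0 and 6 above, with 2 at an unadjusted p under 0.05 and 0 called by edgeR. Of all genes under RMC-7977, 50.7% lay below 0, 10.3% had an unadjusted p under 0.05 and 0.748% were called. Under Cobimetinib the sign of MYC turned to −0.03 without Cobimetinib replicate 1.

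The wider pathway was read from a list of 130 further genes. Of these 130 other ribosome biogenesis genes, all tested, 103 had a log2 fold change below 0 under RMC-7977 (50.7% of all genes), with a median of −0.17. Of them 1 was called lower and 0 higher, where 0.748% of all genes were called. Without Vehicle replicate 1 the count below 0 was 75 and the median −0.05. The called gene was DDX10, an RNA helicase of the small subunit precursor, at 30.6 ± 5.76 CPM (SD, n = 6) under Vehicle and 16.3 ± 1.62 CPM (n = 4) under RMC-7977, with a log2 fold change of −0.91 ± 0.17 (adjusted p = 0.00855), and it was called in 28 of 30 alternative settings. RUVBL1, an ATPase of snoRNP assembly, stood at 113 ± 15.3 and 74.3 ± 4.11 CPM, with a log2 fold change of −0.61 ± 0.15 (adjusted p = 0.07). For RMC-4550, Trametinib and Cobimetinib 66, 66 and 88 of the 130 were below 0 (50.7%, 50.4% and 51.2% of all genes), with medians of −0.00, −0.00 and −0.07. edgeR called 0 of the 130 in these 3 drugs (0.0283%, 0% and 0% of all genes). At an unadjusted p under 0.05 there were 3, 17 and 3, against 4.24%, 18.8% and 3.3% of all genes.

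The genes of the ribosomal proteins themselves were not lower as a list, and their direction under RMC-7977 hung on single tumours. Of 79 cytosolic ribosomal protein genes, 24 lay below 0 and 55 above under RMC-7977 (50.7% and 49.3% of all genes), with a median of 0.05. Without RMC-7977 replicate 3 the median was −0.14 with 69 below 0, and without Vehicle replicate 1 it was 0.25 with 4 below 0. Under RMC-4550, Trametinib and Cobimetinib 77, 77 and 63 of the 79 lay above 0 (49.3%, 49.6% and 48.8% of all genes), with medians of 0.38, 1.12 and 0.10. edgeR called 0 of the 79 under RMC-7977, RMC-4550, Trametinib and Cobimetinib (0.748%, 0.0283%, 0% and 0% of all genes). In the same order 1, 0, 64 and 1 had an unadjusted p under 0.05, against 10.3%, 4.24%, 18.8% and 3.3% of all genes. Their mean log2 CPM minus the Vehicle mean was 0.62, 0.37, −0.07 and 2.33 in the Trametinib tumours, where the last is replicate 4, 1.15 in RMC-4550 replicate 1 and 0.68 in Vehicle replicate 1. Without Trametinib replicate 4 the median under Trametinib was 0.28.

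**Figure D4:**
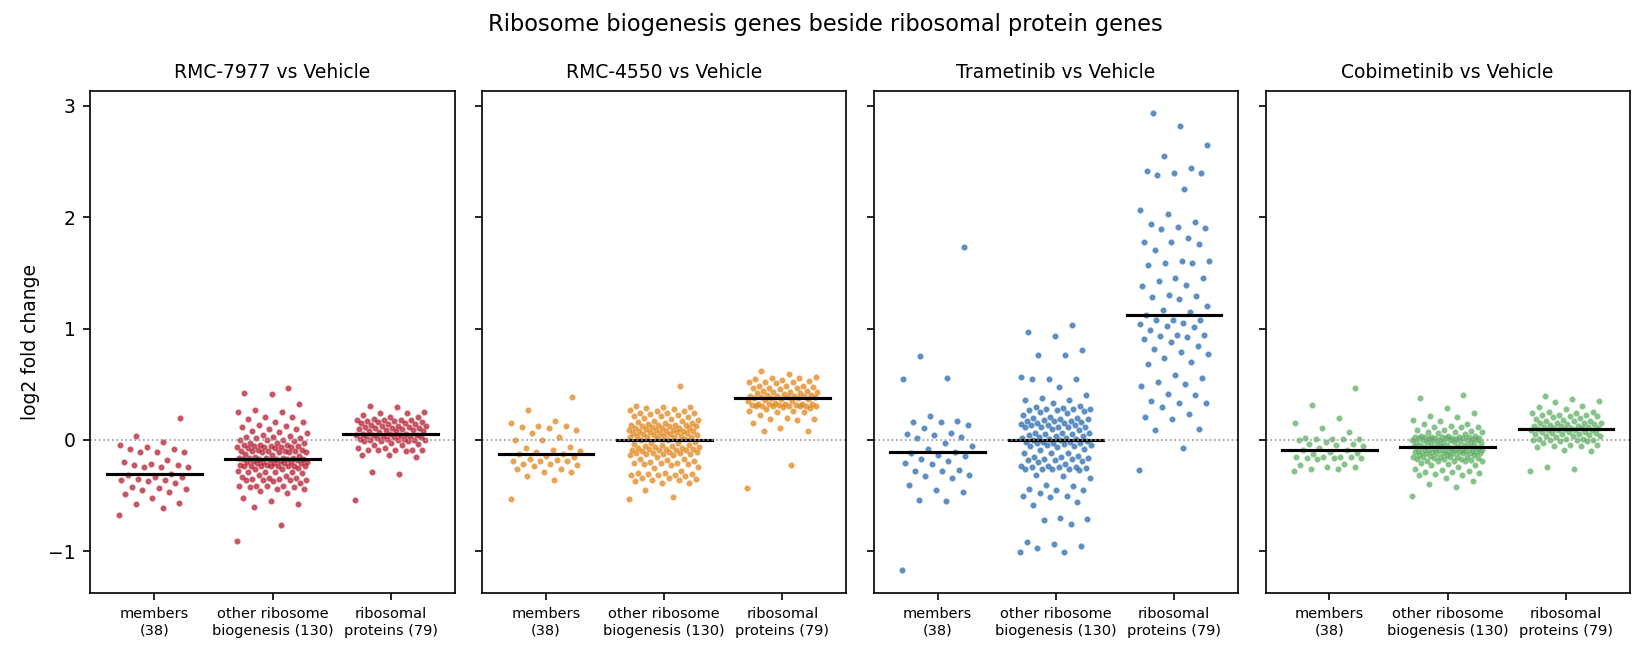
Log2 fold changes against Vehicle of the 38 members, 130 other ribosome biogenesis genes and 79 cytosolic ribosomal protein genes under each drug; points are genes and lines are medians. Under RMC-7977 the medians are −0.31, −0.17 and 0.05, and under Trametinib the ribosomal protein genes reach a median of 1.12.

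Other measures differed between the RMC-7977 and Vehicle tumours together with these genes. Of 9 tested MAPK output genes 6 were called lower under RMC-7977, where 0.748% of all genes were called in either direction. Among the 6 was DUSP6, a phosphatase induced by ERK, at 18.5 ± 6.59 CPM (SD, n = 6) under Vehicle and 1.42 ± 0.309 CPM (n = 4) under the drug (log2 fold change −3.69, adjusted p = 0.00099). Of 16 proliferation genes 15 lay below 0 (50.7% of all genes) with a median of −0.29, and 1 was called, RRM2 (log2 fold change −0.94, adjusted p = 0.0223). Summed endothelial markers (6 genes, 4 tested) were 18.6 to 77.2 CPM under RMC-7977 and 40.3 to 197 CPM under Vehicle, with PECAM1 called lower (log2 fold change −1.71, adjusted p = 0.0235) and KDR at 0 counts in 11 of the 22 tumours. CLDN5 stood at 33.1 ± 21.0 CPM under RMC-7977 and 81.9 ± 61.5 CPM under Vehicle. VWF went the other way, at 2.52 ± 1.00 CPM under RMC-7977 and 1.48 ± 0.935 CPM under Vehicle. Summed myeloid markers (8 genes, 4 tested) were 6.95 to 10.6 CPM against 11.7 to 26.9 CPM without overlap, with LAPTM5 called lower (log2 fold change −3.75, adjusted p = 0.00591). CD68, TYROBP and AIF1 had 0 counts in 16, 18 and 21 tumours. Summed fibroblast markers (6 genes, 1 tested) were 91.2 to 212 CPM against 21.1 to 304 CPM. Muscle and blood markers held at most 1.76 CPM in sum outside Trametinib replicate 4, which had 39.9 CPM of muscle markers, and HBB had 0 counts in all 22 tumours. Summed epithelial markers (8 genes, all tested) were 2914 to 4370 CPM against 3218 to 4169 CPM, but single markers moved in different directions. KRT8 stood at 1181 ± 186 CPM under RMC-7977 and 1718 ± 381 CPM under Vehicle. KRT18 stood at 329 ± 52.4 and 519 ± 111 CPM in the same order. NKX2-1 went the other way, at 6.34 ± 7.04 and 2.78 ± 2.47 CPM. Group means of the other epithelial markers are not given here. PECAM1 and LAPTM5 were chosen after their values were seen. COL1A1 had a median of 179 CPM, while COL1A2 had 0 counts in 12 tumours. Whether host reads were removed is not given, so reads of these markers cannot be assigned to tumour or host cells. The marker sums therefore do not measure numbers of endothelial, myeloid or fibroblast cells. The part of proliferation and of other cell types in the lower ribosome biogenesis genes was not tested.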

How the data were processed

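Strand-specific libraries of 22 tumours were sequenced. The values are the deposited raw counts, 1 column per tumour. The submitters' processing notes name the build hg38, the counter featureCounts (1.5.0-p3), the aligner HISAT2 (2.0.5), fastp, edgeR (3.22.5) and DESeq2 (1.20.0). How counting used strand, which annotation it used and whether host reads were removed is not given in the sources used here, so reads shared with overlapping or antisense genes cannot be assigned. Gene length is a column of the deposited table. All 58735 genes lay at their positions in GENCODE 29, which gave GC content and overlaps.

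Genes were kept with edgeR (4.0.16, R 4.3.3) at its minimum count of 10, which left 17652 genes with 99.718% of all counts. Counts were scaled by TMM, and 1 robust quasi-likelihood model with a mean for each group took in all 22 tumours (2-sided tests). The common dispersion was 0.1357. p-values were adjusted by Benjamini-Hochberg over all tested genes in each of 12 comparisons, with a threshold of 0.05. Log2 CPM used a prior count of 2. The pipeline was tested on simulated data. Members, lists and tests were chosen with earlier results of these data known. Named are, in each role, the member with the smallest p in each drug and in the mean of the 4 drugs, any called member, and MYC; other members were added to account for all 38, some after their values were seen. Up to 3 genes with the smallest p could be named from each further list. Motifs were searched by exact letters.

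Alternatives were RLE scaling, DESeq2 (1.42.0), no filter, a replicate block, a GC correction, both together, leaving out the 2 or 4 tumours that stood apart, and leaving out each tumour. The deviations of same-numbered tumours correlated above 0.1 in every pair for Vehicle with RMC-4550 (correlation 0.1704 to 0.7109) and with Trametinib (0.1362 to 0.2021), and in no other 2 groups. No 2 tumours of a group agreed within counting noise (lowest chi-square per degree of freedom 12.1). No sequencing reads were used here.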

Additional observations from a re-analysis of the deposited data

Results flagged for a closer look

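Of 95 combinations of a group and an item examined, 13 held a tumour far from the rest of its group by Dixon's criterion. Chance alone would give this in about 5% of independent sets. These combinations read the same tumours again and are not independent, so the count cannot be set against that share. Vehicle replicate 1 accounted for 6. Its members took 0.470% of all counts, against at most 0.364% in the other 5 Vehicle tumours. Its log2 CPM was 6.72 for UBTF, 4.71 for RRP12 and 5.87 for BOP1, each below the other Vehicle tumours, and 6.50 for NOP10 and 10.22 for NPM1, each above them. Trametinib replicate 4 accounted for 4, with log2 CPM of 7.51 for NCL, 3.73 for NOP14, 5.55 for NOLC1 and 5.57 for TSR1, all below the other Trametinib tumours. NOP14 in RMC-7977 replicate 3 stood at 4.66, below the other 3 tumours of its group, and BOP1 in RMC-4550 replicate 1 at 5.10, below its group. BYSL in Cobimetinib replicate 1 stood at 4.48, above the other 3.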

How the results depend on the processing

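Signs of members near 0 turned with several alternatives (HEATR1 and NOB1 under RMC-7977 with the GC correction, for example). The sign of MYC under Cobimetinib turned to −0.052 with the replicate block and GC correction and −0.032 without Cobimetinib replicate 1 (up to 0.31 without Cobimetinib replicate 3). For RMC-7977 against Vehicle the count of called members moved from 0 to 1 with RLE scaling (NOP56; 0.844% of all genes) and 1 without the 2 tumours with few low counts (NOP56; 2.07%), and to 2 with DESeq2 (3.04%) and 2 without the 4 tumours that stood apart (NOP56 and BYSL; 6.38%). DESeq2 gave 3 called members in RMC-7977 against Trametinib (4.32%) and 1 in the test of any difference among 5 groups (7.42%). Without the 4 tumours the counts were 4 in Trametinib against Vehicle (BOP1 and RRP12 lower, FBL and WDR75 higher, where 15.1% of all genes were called), 4 in RMC-7977 against Trametinib (5.3%), 1 in RMC-7977 against Cobimetinib (NOP16; 3.79%), 1 in Trametinib against Cobimetinib (BOP1; 3.02%) and 3 in any difference among 5 groups (12.1%). The median of the members in Trametinib against Vehicle was 0.048 without the 2 tumours and 0.11 without the 4. Leaving out 1 tumour at a time gave 0 to 2 called members in RMC-7977 against Vehicle (2 without Trametinib replicate 4, with 3.01% of all genes), and 0 to 3 in Trametinib against Vehicle (1 without Trametinib replicate 1 or 2, with 3.02% and 3.44%, 3 without Trametinib replicate 3, with 7.84%, 2 without Vehicle replicate 1, with 4.19%) and in RMC-7977 against Trametinib (2 without Trametinib replicate 1 or 2, with 2.32% and 3.34%, 3 without replicate 3, with 7.07%). It gave 0 to 1 in Trametinib against Cobimetinib (without Trametinib replicate 3, with 1.72%) and in any difference among 5 groups (without Trametinib replicate 2 or 3, with 3.14% and 4.88%), and 0 in the other 7 comparisons. The medians ran over these from −0.35 to −0.25 in RMC-7977, −0.22 to −0.01 in RMC-4550, −0.22 to 0.03 in Trametinib, −0.17 to 0.02 in Cobimetinib and −0.20 to −0.03 in the mean of the 4 drugs. The highest came without Vehicle replicate 1, or in Trametinib without Trametinib replicate 4. With the replicate block 0 members were called in any comparison, the median in RMC-7977 was −0.25, and no call of a member changed. DDX10 lost its call with it (adjusted p = 0.189), as did MYC among the 5 groups (adjusted p = 0.303). Replicates 5, 6 and 7 exist only in Vehicle. In every fit with the block each of them had its own term, so Vehicle was set by its replicates 1, 2 and 3 alone. The log2 fold change of NOP56 for the mean of the 4 drugs was −0.21 with the block. The GC correction also gave 0 called members. The shares of all genes called with the block and with the correction are not given here, so these counts of 0 cannot be set beside them. The causes of these movements were not tested. The alternatives for MYC, DDX10, RUVBL1 and the further gene lists were added after seeing the data. DESeq2 gave no adjusted p for NOP10 in the drugs against Vehicle. The number of tumours and their spread, with a biological coefficient of variation of 0.3684, limit what could be called, and NOP2 is limited by its 550 counts.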
